A study of Mus musculus with 9 samples.

Results

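The genes described here are 50 genes that act in G2 and M phase, the stretch of the cell cycle in which a cell with copied DNA prepares for division, separates its chromosomes and splits. They were taken by name from the 56860 genes of a mouse RNA-seq count table, and all 50 were found and passed the filter on low counts that left 19348 genes to test. The 9 libraries are labelled as spleen CD4+ T cells and fall into 3 groups of 3, namely mice with CIA that received luteolin, a plant flavone, mice with CIA that received none, and control mice. CIA is not spelled out in the labels, and the series title names RA and Th17 cells. Strain, sex, age, dose and duration are not given in the sources used here. Nor is it stated whether the 3 libraries of a group come from separate mice, so the p-values measure the spread between these libraries, which may be technical.

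A cell enters mitosis when cyclin A and cyclin B activate the kinase CDK1. The Aurora and Polo kinases, the condensins and the kinesin motors then build the spindle and the condensed chromosomes, and the anaphase-promoting complex ends mitosis by destroying the cyclins and securin. Transcripts of most of these genes are low in resting cells and climb in G2. The DREAM complex represses them in G0, and MYBL2 and FOXM1 activate them later, through the promoter element called the cell cycle homology region, often with CCAAT boxes bound by NF-Y. In spleen, activated lymphocytes, granulocyte precursors and erythroid precursors are among the cells known to divide.

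Promoters are shown for 5 of the genes because these elements are what the family is known to share. The letters are the 250 bases before the start of the gene in RefSeq on GRCm38.p6, read 5′ to 3′ on the gene's own strand. Capitals mark TTTGAA (the core of the cell cycle homology region) and CCAAT, each on either strand. TTCAAA and ATTGG are the same elements reversed. Mki67, Top2a and Bub1b are the 3 genes with the highest level per length among those whose RefSeq window holds both elements. Ccnb2, with evenly spaced CCAAT boxes, and Cks2, whose counts moved apart from the other genes, were added after their values had been seen.
Mki67: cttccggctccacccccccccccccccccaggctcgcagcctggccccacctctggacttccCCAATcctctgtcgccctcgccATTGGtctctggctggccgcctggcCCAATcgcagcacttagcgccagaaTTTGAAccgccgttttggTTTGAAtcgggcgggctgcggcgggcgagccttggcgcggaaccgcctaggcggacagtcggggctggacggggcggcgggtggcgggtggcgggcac
Top2a: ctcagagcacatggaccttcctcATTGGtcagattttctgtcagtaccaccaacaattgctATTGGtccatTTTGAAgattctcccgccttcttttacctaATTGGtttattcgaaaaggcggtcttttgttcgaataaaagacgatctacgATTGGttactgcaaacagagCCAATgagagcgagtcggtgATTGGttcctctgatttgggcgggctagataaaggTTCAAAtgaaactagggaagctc
Bub1b: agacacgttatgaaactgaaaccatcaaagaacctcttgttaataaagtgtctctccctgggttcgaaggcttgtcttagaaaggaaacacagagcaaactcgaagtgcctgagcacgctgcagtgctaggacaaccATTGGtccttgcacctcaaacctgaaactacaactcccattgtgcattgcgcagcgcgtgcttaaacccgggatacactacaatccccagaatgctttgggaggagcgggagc
Ccnb2: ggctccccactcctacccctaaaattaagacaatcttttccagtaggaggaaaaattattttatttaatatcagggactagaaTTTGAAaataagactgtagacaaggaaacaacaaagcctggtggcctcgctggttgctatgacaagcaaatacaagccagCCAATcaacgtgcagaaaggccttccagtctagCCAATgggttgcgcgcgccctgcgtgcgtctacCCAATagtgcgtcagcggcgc
Cks2: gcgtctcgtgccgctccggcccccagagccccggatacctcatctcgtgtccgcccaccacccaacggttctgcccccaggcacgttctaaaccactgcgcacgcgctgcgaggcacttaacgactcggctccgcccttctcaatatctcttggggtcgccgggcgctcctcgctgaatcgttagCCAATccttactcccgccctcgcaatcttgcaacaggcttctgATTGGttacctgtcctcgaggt
These windows lie at chr7:135716380-135716629 on the minus strand for Mki67, chr11:99024190-99024439 on the minus strand for Top2a, chr2:118597961-118598210 on the plus strand for Bub1b, chr9:70421555-70421804 on the minus strand for Ccnb2 and chr13:51644982-51645231 on the plus strand for Cks2. Mki67 held TTTGAA at 116 and 98 bases before the start and CCAAT at 188, 166 and 141. Top2a held TTTGAA at 179 and 23 bases before the start and 6 CCAAT boxes. Ccnb2 held 3 CCAAT boxes at 87, 54 and 21 bases before the start, 33 bases apart, with TTTGAA at 167 bases before the start and a further copy just after it. The TTTGAA of Bub1b lay after the start and is not shown, and the Cks2 window held no TTTGAA and 2 CCAAT boxes before the start.

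Of the 50 genes, 41 were matched by symbol to a RefSeq promoter of 300 bases, which adds 50 bases after the start, and Ccna2, Cdc25c, Pbk, Aurkb, Kif20a, Tpx2, Dlgap5, Smc4 and Cdca2 were not. TTTGAA occurred in 32 of the 41 (78%), against 20.2% of the 27025 genes in the promoter table and 15.3% of the 11772 tested genes with a promoter. In the 250 bases before the start alone it occurred in 16 of the 41 (39%), against 18.3% and 13.7%. In the whole window CCAAT occurred in 33 of the 41 (80.5%), against 41.1% and 42.6%, and both elements occurred together in 27 (65.9%), against 7.97% and 6.17%. At least 2 CCAAT boxes were present in 24 of the 41, and in 10 of them neighbouring boxes began 31 to 34 bases apart. These 2 counts were not made for other promoters, so whether they are particular to these genes was not tested. No TTTGAA and CCAAT overlapped in the 5 printed windows. A match describes the letters only and says nothing of whether a factor binds there.

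Before the results, some libraries have to be set against their labels. Cd4, the coreceptor that defines the labelled cells, was at 106, 106 and 98.5 CPM in CIA with luteolin, 82.1, 151 and 150.3 in CIA and 3.65, 2.46 and 2.66 in control, in library-scaled counts (CPM, scaled by TMM). The defining marker was thus near 0 in the libraries labelled control. S100a9, a neutrophil gene that the labelled cells are not known to make, was at 4287, 3843 and 3784 CPM in CIA with luteolin, 4783, 7109.7 and 8339 in CIA and 1928, 1514 and 1503 in control. The total counts were 33436951 to 41815573 in CIA with luteolin, 31851523 to 35670309 in CIA and 31234177 to 40553934 in control. CIA libraries were the least alike, with chi-square values of 35.8 to 127 per degree of freedom between pairs, against 5.91 to 10.3 within CIA with luteolin and 7.24 to 17.6 within control. No pair agreed within sampling noise.

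The 50 genes together were highest in CIA with luteolin and lowest in CIA. Their summed level was 4474, 4705 and 4419 CPM in CIA with luteolin, 1552, 1366 and 1366 in CIA and 2997, 2946 and 2871 in control. No library of a group came near another group, and in 40 of the 50 genes the 3 groups stood in this order with no overlap of libraries, where 5.7% of all genes did. The sums averaged 4532 ± 152 CPM in CIA with luteolin, 1428 ± 107 in CIA and 2938 ± 63.7 in control (SD, n = 3 each). In RNA from mixed cells, fewer cells of a type and less RNA per cell cannot be told apart.

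**Figure D1:**
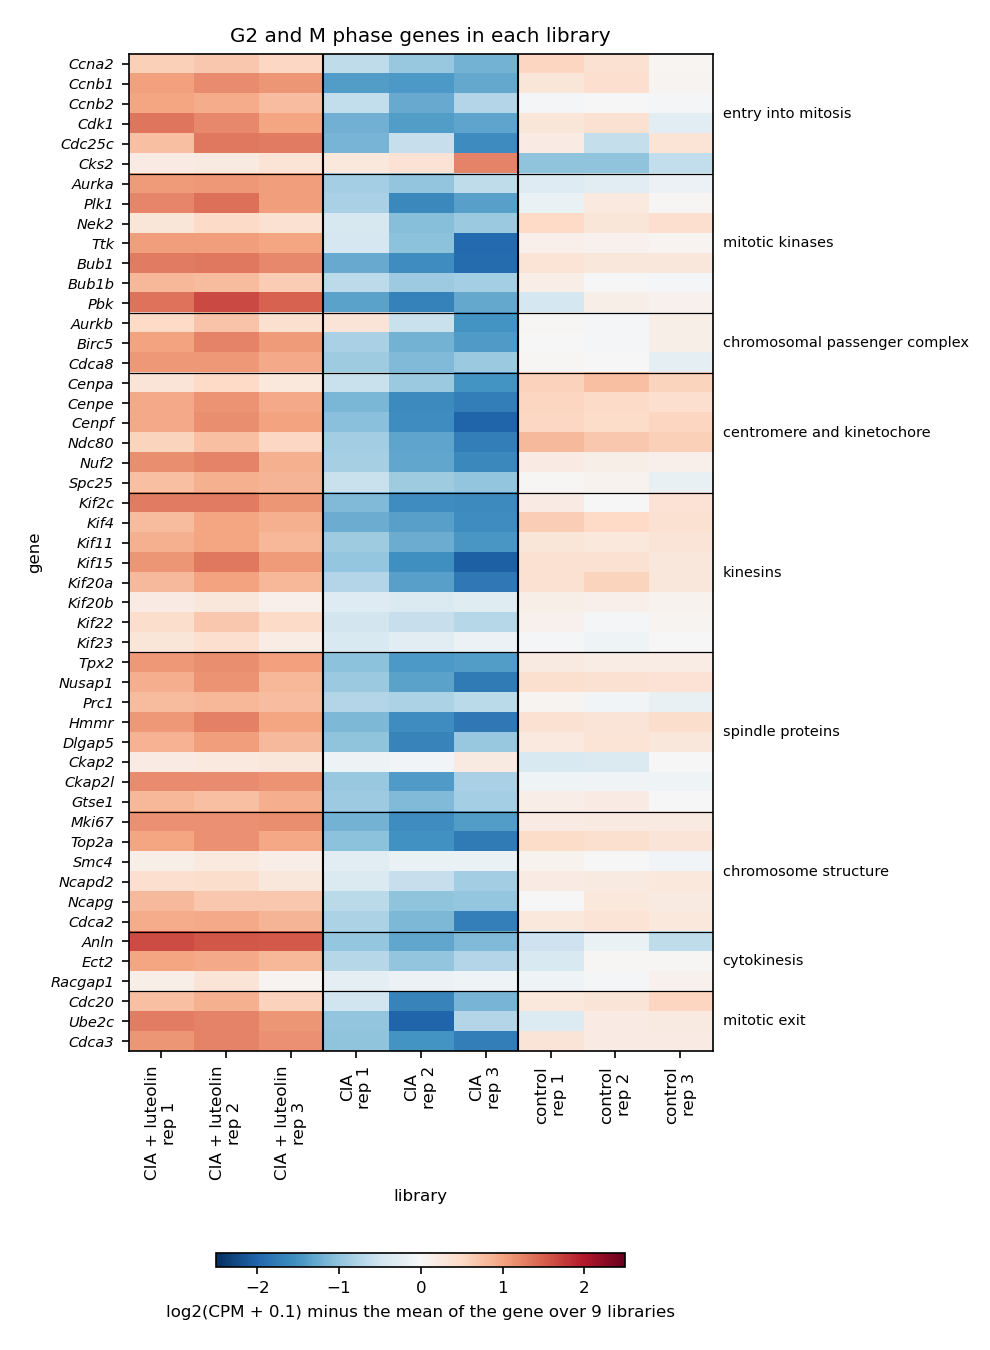
Level of each of the 50 genes (rows, grouped by role) in each of the 9 libraries (columns), as log2(CPM + 0.1) minus the gene's mean over the 9 libraries. Red is above and blue below that mean; most rows are red in CIA with luteolin, pale in control and blue in CIA, while Cks2 is lowest in control and Ckap2, Smc4, Racgap1, Kif20b and Kif23 vary little.

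Between CIA with luteolin and CIA, 48 of the 50 genes rose and none fell (edgeR quasi-likelihood test across 19348 genes, Benjamini-Hochberg adjusted p under 0.05), where 23.1% of all genes tested rose. The median log2 fold change of the 50 was 2.09, against -0.04 over all genes, 42 of them rose and none fell at least 2-fold, against 10.5% and 8.37% of all genes. The libraries of the groups did not overlap in 48, where 28% of all genes were higher without overlap. Cks2 and Ckap2 did not pass the test.

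Between CIA and control, 45 of the 50 fell and Cks2 rose, where 24.5% of all genes fell and 26.6% rose. The median log2 fold change was -1.24, against -0.01 over all genes, and 32 fell at least 2-fold, against 7.6% of all genes. All CIA libraries lay below all control libraries in 46 of the 50, where 29.1% of all genes were lower without overlap, and above them in Cks2, where 29.7% were higher. Aurkb, Kif23, Ckap2 and Racgap1 did not pass the test. These are differences from libraries with little Cd4, as given above.

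Between CIA with luteolin and control, 39 rose and none fell, where 24.2% of all genes rose and 20.8% fell. The median log2 fold change was 0.72, against -0.01 over all genes. At least 2-fold, 13 of the 50 rose and none fell, against 13.2% and 5.8% of all genes. The CIA with luteolin libraries all lay above the control libraries in 44 and below them in 1, against 32.3% and 30.9% of all genes. The 11 that did not pass were Ccna2, Nek2, Aurkb, Cenpa, Ndc80, Kif20a, Kif20b, Smc4, Ncapd2, Racgap1 and Cdc20. In a fit of those 6 libraries alone Ccna2, Aurkb, Kif20a, Smc4 and Cdc20 passed as rises and Cenpa as a fall. Of the genes that rose, Cenpf, Ckap2, Nusap1, Cdc25c, Kif23 and Kif4 lost the call when some single libraries were left out. Of the 50 genes, 45 fell in CIA against control and rose in CIA with luteolin against CIA, where 12.3% of all genes did both. Of these, 36 also rose in CIA with luteolin against control, where 3.73% of all genes did all of it. The comparisons share libraries, so a gene with unusual CIA values enters both of the first 2 in opposite directions.

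**Figure D2:**
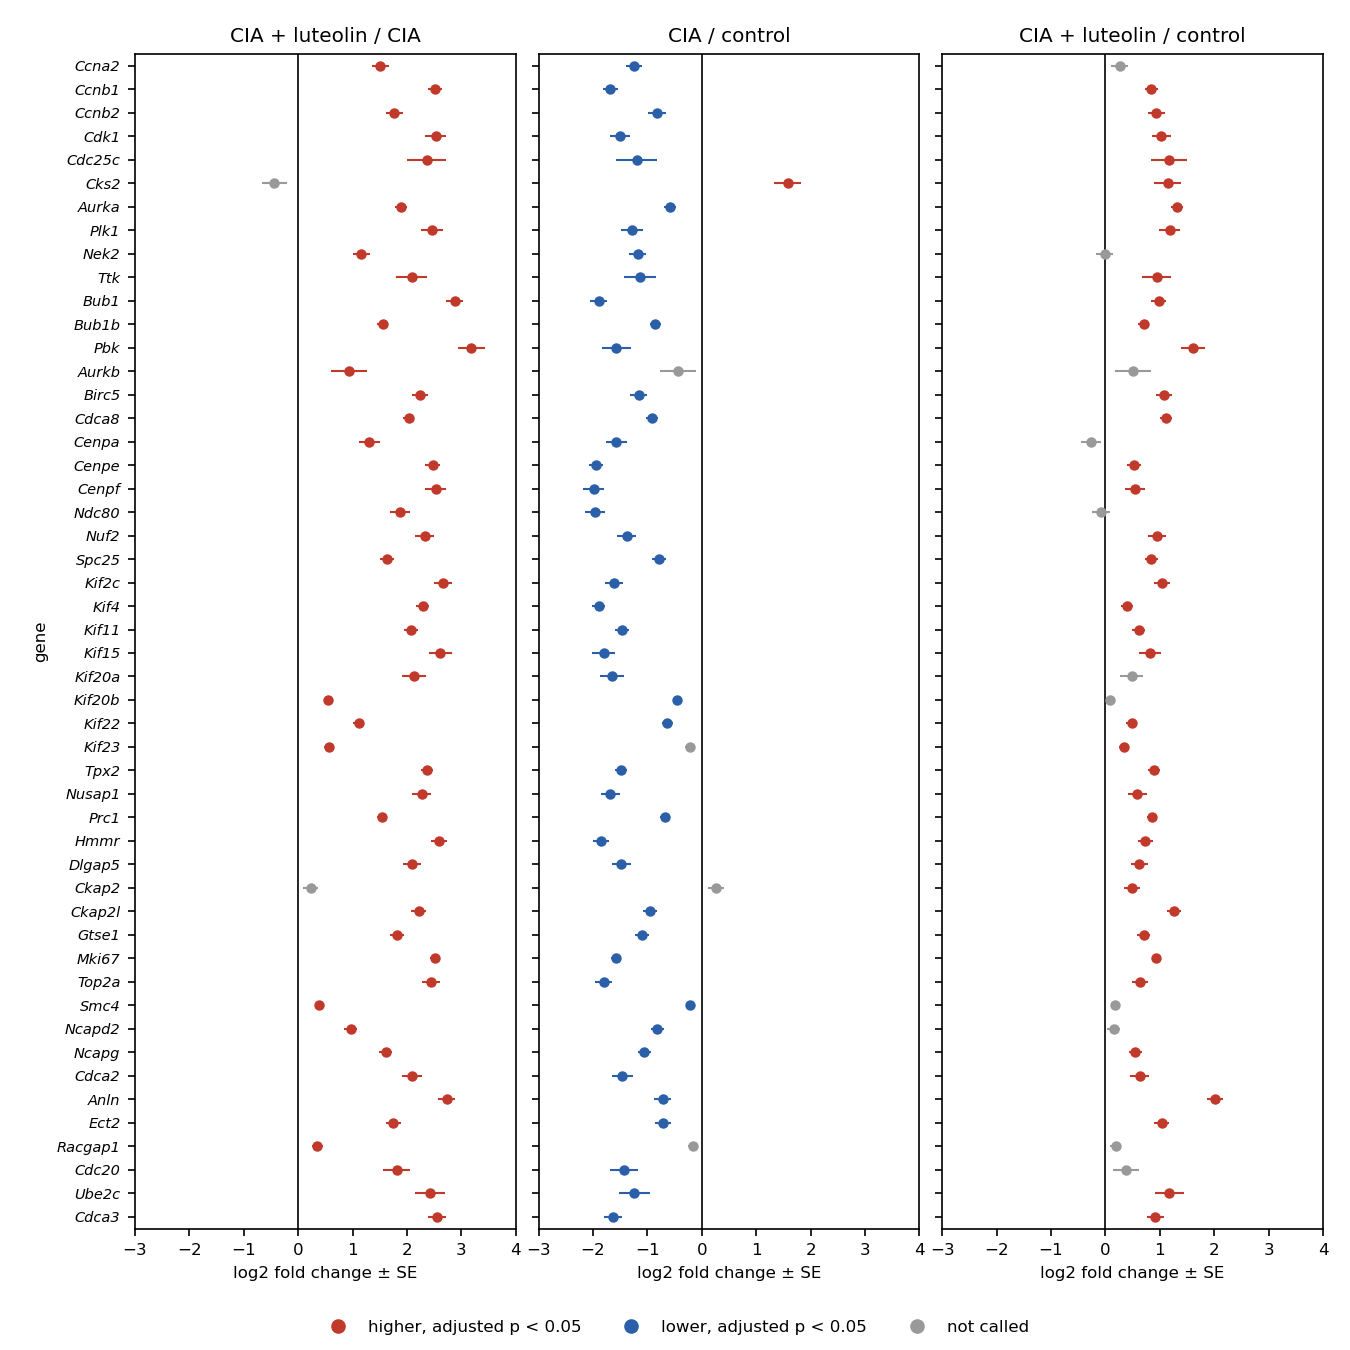
Log2 fold change ± SE of each of the 50 genes (rows) in CIA with luteolin against CIA (left), CIA against control (middle) and CIA with luteolin against control (right); red points rose and blue points fell at an adjusted p under 0.05, and grey points did not pass. Points in the left panel lie between -0.44 (Cks2) and 3.18 (Pbk), in the middle panel between -1.99 (Cenpf) and 1.58 (Cks2), and in the right panel between -0.27 (Cenpa) and 2.02 (Anln).

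The genes that bring a cell into mitosis are the mitotic cyclins Ccna2, Ccnb1 and Ccnb2, the kinase Cdk1 that they activate, the phosphatase Cdc25c that removes the inhibitory phosphates from CDK1, and Cks2, a small subunit that binds CDK1. Of these 6, 5 rose in CIA with luteolin against CIA, and the same 5 fell in CIA against control. Cdk1 had 19.5, 17.9 and 15.2 CPM in CIA with luteolin, 3.28, 2.84 and 3.01 in CIA and 9.48, 9.99 and 6.30 in control. Its CIA libraries lay well below all 6 others and its CIA with luteolin libraries above all of them. It rose by 2.53 ± 0.19 on the log2 scale in CIA with luteolin against CIA (adjusted p = 2.77e-06). Between CIA and control its log2 fold change was -1.50 ± 0.19, adjusted p = 0.000131. In CIA with luteolin against control it was 1.03 ± 0.17, adjusted p = 0.000802. Ccnb1 had 15.2, 17.0 and 16.03 CPM in CIA with luteolin, 2.75, 2.69 and 2.98 in CIA and 9.13, 10.01 and 7.79 in control, again 3 separate levels. It was 5.73-fold higher in CIA with luteolin than in CIA (log2 2.52 ± 0.13, adjusted p = 2.65e-07) and 3.20-fold lower in CIA than in control (log2 -1.68 ± 0.13, adjusted p = 9.13e-06).

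Ccnb2 had 12.7, 12.2 and 11.0 CPM in CIA with luteolin, 4.14, 2.603 and 3.77 in CIA and 6.15, 6.30 and 6.27 in control, with the groups in the same order. On the log2 scale the change was 1.77 ± 0.16 in CIA with luteolin against CIA and -0.83 ± 0.17 in CIA against control. Ccna2, which also acts in S phase, had 43.3, 45.9 and 40.6 CPM in CIA with luteolin, 18.3, 14.8 and 12.5 in CIA and 41.7, 37.0 and 29.7 in control. Here the CIA libraries stood apart while CIA with luteolin and control overlapped, and the log2 fold change between those was 0.26 ± 0.15, adjusted p = 0.186. Cdc25c was the least abundant of the 50 genes per length, at 0.302 CPM per kb over the 9 libraries. It had 2.04, 3.10 and 3.03 CPM in CIA with luteolin, 0.473, 0.761 and 0.331 in CIA and 1.38, 0.743 and 1.52 in control. A CIA library at 0.761 CPM lay above the lowest control library. The fall in CIA against control (-1.20 ± 0.38, adjusted p = 0.0216) was lost without control replicate 1 or 3 or CIA replicate 3, with adjusted p between 0.0534 and 0.0715.

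Cks2 was the only one of the 50 to rise in CIA against control. It had 9.30, 9.44 and 10.2 CPM in CIA with luteolin, 9.70, 10.4 and 19.2 in CIA and 3.95, 3.97 and 5.22 in control. The 3 control libraries were lowest and CIA replicate 3 stood above all other libraries. Cks2 rose in CIA against control by 1.58 ± 0.25 on the log2 scale (adjusted p = 0.000486) and by 1.21 without CIA replicate 3. It also rose in CIA with luteolin against control by 1.14 ± 0.25 (adjusted p = 0.00345). Between CIA with luteolin and CIA its log2 fold change was -0.44 ± 0.24, adjusted p = 0.149, and without CIA replicate 1 it was -0.61 and passed the test as a fall (adjusted p = 0.0388). Its promoter, shown above, was among the 9 matched promoters without TTTGAA. Those 9 genes had a median log2 fold change of 2.27 in CIA with luteolin against CIA, against 1.96 for the 32 with TTTGAA. A link between the element and the values of Cks2 was not tested.

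All 7 mitotic kinases rose in CIA with luteolin against CIA, all 7 fell in CIA against control, and 6 rose in CIA with luteolin against control. Bub1b, which encodes BUBR1 of the spindle checkpoint, had the highest level per length of these, 30.7 CPM per kb in CIA with luteolin, 10.4 in CIA and 18.9 in control. Its libraries read 137, 135 and 121 CPM in CIA with luteolin, 49.3, 41.2 and 43.3 in CIA and 87.5, 78.5 and 75.8 in control, with no overlap between groups. The log2 fold change was 1.55 ± 0.10, adjusted p = 9.01e-07, in CIA with luteolin against CIA and -0.85 ± 0.10, adjusted p = 7.92e-05, in CIA against control.

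Aurka, the Aurora kinase of the centrosomes, had 31.2, 31.4 and 30.6 CPM in CIA with luteolin, 8.14, 7.40 and 9.49 in CIA and 11.9, 12.3 and 13.3 in control. CIA with luteolin lay far above both other groups, which did not overlap. Its log2 fold change was -0.58 ± 0.11 in CIA against control (adjusted p = 0.00153) and 1.32 ± 0.11 in CIA with luteolin against control (adjusted p = 8.7e-06). Plk1, the Polo kinase that acts from mitotic entry to cytokinesis, had 19.8, 22.2 and 17.7 CPM in CIA with luteolin, 4.81, 2.72 and 3.28 in CIA and 7.55, 10.1 and 8.70 in control. It was 5.52-fold higher in CIA with luteolin than in CIA. Bub1, the checkpoint kinase at kinetochores, rose 7.34-fold in the same comparison and fell 3.73-fold in CIA against control. Ttk, which encodes the checkpoint kinase MPS1, had 6.72, 6.74 and 6.47 CPM in CIA with luteolin, 2.36, 1.52 and 0.761 in CIA and 3.50, 3.46 and 3.39 in control. The CIA libraries of Ttk spread over a wider range than those of the other groups. For Ttk the log2 fold change was 2.08 ± 0.29 in CIA with luteolin against CIA and -1.14 ± 0.29 in CIA against control.

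Pbk and Nek2 mark the ends of the range among these kinases. Pbk, a mitotic MAP kinase kinase-like kinase, had 3.63, 4.45 and 3.95 CPM in CIA with luteolin, 0.473, 0.351 and 0.496 in CIA and 0.975, 1.51 and 1.46 in control. It rose 9.08-fold in CIA with luteolin against CIA (3.18 ± 0.25, adjusted p = 4.45e-06), the largest fold of the 50 genes in that comparison. Nek2, a centrosome kinase, had 24.9, 28.2 and 26.5 CPM in CIA with luteolin, 15.4, 9.59 and 10.6 in CIA and 28.6, 25.1 and 26.96 in control. Only the CIA libraries of Nek2 stood apart. It fell 2.26-fold in CIA against control and rose 2.24-fold in CIA with luteolin against CIA. Between CIA with luteolin and control its log2 fold change was -0.02 ± 0.15, adjusted p = 0.945, and it turned to between 0.0055 and 0.0322 under other scalings or without 1 library.

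The chromosomal passenger complex, which corrects faulty spindle attachments and then moves to the midzone, is represented by Aurkb, Birc5 (survivin) and Cdca8 (borealin). Cdca8 had 46.3, 46.2 and 41.9 CPM in CIA with luteolin, 11.6, 9.97 and 11.3 in CIA and 22.1, 21.5 and 18.5 in control. Birc5 had 28.8, 33.8 and 29.99 CPM in CIA with luteolin, 8.06, 6.29 and 5.26 in CIA and 14.3, 13.9 and 15.8 in control. In both genes the 3 groups were separate, with log2 fold changes of 2.03 ± 0.11 and 2.24 ± 0.15 in CIA with luteolin against CIA and of -0.92 ± 0.10 and -1.16 ± 0.15 in CIA against control. Aurkb, the kinase of the complex, behaved less evenly, with 10.6, 12.3 and 9.98 CPM in CIA with luteolin, 9.34, 5.09 and 2.61 in CIA and 7.60, 7.197 and 8.36 in control. CIA replicate 1 of Aurkb lay above all control libraries and CIA replicate 3 below them. Its rise in CIA with luteolin against CIA (0.94 ± 0.33, adjusted p = 0.0375) lost its call in 7 of the 9 fits that leave out a library. That call was also lost in a fit of the 6 libraries of these groups alone (adjusted p = 0.0756). Its log2 fold change in CIA against control was -0.43 ± 0.33, adjusted p = 0.298, and -0.996 without CIA replicate 1 (adjusted p = 0.00378).

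All 6 centromere and kinetochore genes fell in CIA against control, with a median log2 fold change of -1.76, and all 6 rose in CIA with luteolin against CIA, with a median of 2.10. Cenpe, the kinesin that carries chromosomes to the spindle equator, had 181, 203 and 181 CPM in CIA with luteolin, 42.1, 31.2 and 28.3 in CIA and 136, 130.5 and 125 in control. It was 3.85-fold lower in CIA than in control (log2 -1.95 ± 0.14, adjusted p = 5.22e-06) and 5.56-fold higher in CIA with luteolin than in CIA (log2 2.48 ± 0.14, adjusted p = 4.15e-07). Spc25, a subunit of the NDC80 complex that grips microtubules, had 59.1, 65.2 and 63.7 CPM in CIA with luteolin, 23.9, 19.0 and 17.6 in CIA and 36.0, 37.6 and 30.9 in control. Its log2 fold change was -0.78 ± 0.12 in CIA against control and 1.63 ± 0.12 in CIA with luteolin against CIA.

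Its partners in that complex differed in where CIA with luteolin stood against control. Nuf2 had 42.8, 45.1 and 35.4 CPM in CIA with luteolin, 10.6, 7.66 and 6.22 in CIA and 22.1, 21.2 and 20.8 in control. It rose 1.92-fold in CIA with luteolin against control (log2 0.94 ± 0.17, adjusted p = 0.0011). Ndc80 had 38.8, 44.6 and 38.0 CPM in CIA with luteolin, 14.5, 10.6 and 7.91 in CIA and 46.3, 42.1 and 39.9 in control, and its CIA with luteolin and control libraries overlapped. Its log2 fold change in that comparison was -0.08 ± 0.17, adjusted p = 0.735. The difference between the 2 genes was not tested. Cenpf, a large kinetochore protein of G2 and M phase, fell 3.96-fold in CIA against control, the largest fall of the 50 genes. Its rise in CIA with luteolin against control (0.54 ± 0.18, adjusted p = 0.0329) lost its call in 6 of the 9 fits that leave out a library. Cenpa, the histone H3 variant that marks centromeres, had 38.7, 43.5 and 36.8 CPM in CIA with luteolin, 21.0, 16.2 and 10.9 in CIA and 46.2, 51.9 and 45.1 in control. It was the only one of the 50 whose CIA with luteolin libraries all lay below the control libraries, at -0.27 ± 0.18 on the log2 scale (adjusted p = 0.261). The call as a fall appeared without CIA replicate 3 (adjusted p = 0.0427) and in a fit of those 6 libraries alone (adjusted p = 0.00982).

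**Figure D3:**
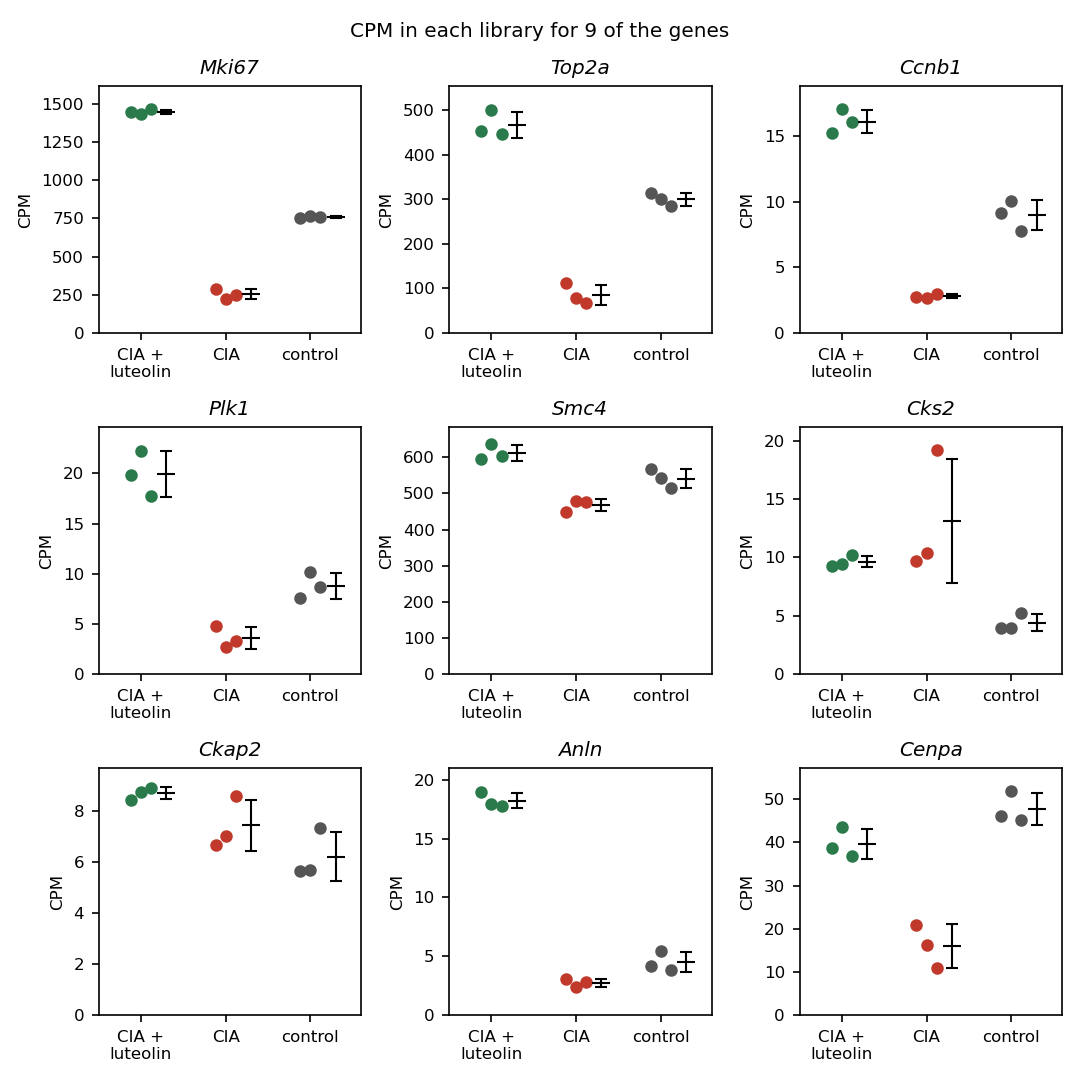
CPM of 9 of the genes in each library (points) with the mean ± SD of each group (bars, n = 3), on axes that start at 0. Mki67, Top2a, Ccnb1 and Plk1 show 3 separate levels, with CIA with luteolin highest and CIA lowest. Cks2 is lowest in control, and Ckap2 overlaps between CIA and either other group. Anln is at 17.8 CPM or more in CIA with luteolin and 5.43 CPM or less elsewhere, and Cenpa is highest in control.

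All 8 kinesin motors rose in CIA with luteolin against CIA and 7 fell in CIA against control, while 6 rose in CIA with luteolin against control. Kif11, the Eg5 motor that pushes the spindle poles apart, had 91.1, 97.8 and 88.6 CPM in CIA with luteolin, 26.7, 21.0 and 18.1 in CIA and 60.8, 59.1 and 61.9 in control. It rose 4.22-fold in CIA with luteolin against CIA (2.08 ± 0.13, adjusted p = 7.91e-07) and fell 2.76-fold in CIA against control (-1.47 ± 0.13, adjusted p = 1.58e-05). Kif2c, which depolymerises microtubules at centromeres, Kif4, a chromosome-arm motor, and Kif15, which backs up Eg5, rose 6.32-fold, 4.88-fold and 6.12-fold in the first of these comparisons. Kif22, a chromosome-arm motor too, rose 2.16-fold.

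Kif20b, a motor of cytokinesis, had 116, 122.5 and 109.6 CPM in CIA with luteolin, 80.0, 78.3 and 80.7 in CIA and 110.5, 109 and 107 in control. It rose by 0.54 ± 0.07 on the log2 scale in CIA with luteolin against CIA (adjusted p = 0.000146), at 14.6 CPM per kb over the 9 libraries against 7.82 for Kif11. Kif23, the motor of the centralspindlin complex, had 51.1, 55.8 and 47.3 CPM in CIA with luteolin, 32.0, 34.6 and 37.5 in CIA and 40.9, 38.5 and 41.8 in control. Every CIA library of Kif23 lay below every control library, yet the log2 fold change of -0.22 ± 0.09 had an adjusted p of 0.0708. It passed with library totals as the only scaling (adjusted p = 0.0404) and without CIA replicate 3 (adjusted p = 0.0249). Kif20a, which takes the passenger complex to the midzone, rose 4.39-fold in CIA with luteolin against CIA, but shares 29.3% of its exonic bases with Cdc23 on the other strand, so its counts are uncertain. Its libraries read 18.9, 21.6 and 19.1 CPM in CIA with luteolin, 6.42, 4.10 and 3.01 in CIA and 13.9, 15.8 and 13.04 in control, with no overlap between groups. Cdc23, a subunit of the anaphase-promoting complex, itself rose 1.89-fold in that comparison and fell 1.79-fold in CIA against control.

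Of 8 spindle proteins, 7 rose in CIA with luteolin against CIA, 7 fell in CIA against control and all 8 rose in CIA with luteolin against control. Tpx2, which activates Aurora A on the spindle, had 107, 113 and 102 CPM in CIA with luteolin, 24.5, 18.5 and 19.1 in CIA and 59.1, 57.1 and 57.0 in control. It rose 5.18-fold in CIA with luteolin against CIA (log2 2.37 ± 0.11, adjusted p = 1.62e-07) and fell 2.79-fold in CIA against control (log2 -1.48 ± 0.11, adjusted p = 6.63e-06). Nusap1, a microtubule-bundling protein, had 61.5, 71.3 and 58.3 CPM in CIA with luteolin, 17.2, 12.9 and 9.43 in CIA and 42.9, 42.3 and 42.03 in control. Its rise in CIA with luteolin against control was lost without control replicate 2 or 3, at adjusted p of 0.053 and 0.0514. Hmmr, a spindle protein also known as a hyaluronan receptor, Dlgap5, which stabilises kinetochore fibres, and Gtse1, a microtubule-tip protein of G2, rose 6.01-fold, 4.28-fold and 3.51-fold in CIA with luteolin against CIA. Prc1, which bundles the central spindle, rose 2.90-fold.

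Ckap2 and Ckap2l share a name and a protein family and had different values. Ckap2 had 8.45, 8.78 and 8.94 CPM in CIA with luteolin, 6.70, 7.05 and 8.60 in CIA and 5.65, 5.69 and 7.34 in control. Its groups overlapped in 2 of the 3 comparisons. It passed the test only in CIA with luteolin against control (0.49 ± 0.14, adjusted p = 0.0181), a call lost without control replicate 1 or 2 or CIA with luteolin replicate 3. Ckap2l had 53.1, 53.1 and 50.7 CPM in CIA with luteolin, 11.98, 8.63 and 13.2 in CIA and 21.8, 22.0 and 21.8 in control. It rose 4.65-fold in CIA with luteolin against CIA and 2.40-fold in CIA with luteolin against control.

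Genes of chromosome structure include the most abundant of the 50. Mki67 encodes Ki-67, the proliferation marker that coats mitotic chromosomes, and lies at chr7:135291513-135318090 on mm39. It had 1443, 1432 and 1462 CPM in CIA with luteolin, 288, 222 and 248 in CIA and 749, 762 and 757 in control. The 3 groups were far apart for their spread, and Mki67 rose 5.72-fold in CIA with luteolin against CIA (2.52 ± 0.09, adjusted p = 3.16e-08). It fell 2.99-fold in CIA against control (-1.58 ± 0.09, adjusted p = 1.75e-06) and rose 1.91-fold in CIA with luteolin against control (0.94 ± 0.09, adjusted p = 2.09e-05). Top2a, the topoisomerase that untangles sister chromosomes, lies at chr11:98883769-98915015 and had 452, 501 and 447 CPM in CIA with luteolin, 111, 79.7 and 66.4 in CIA and 314, 301 and 285 in control. It rose 5.44-fold in the first comparison and fell 3.50-fold in the second.

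Smc4, the ATPase shared by both condensins, had the highest mean level per length of the 50 over the 9 libraries, with 117 CPM per kb in CIA with luteolin, 89.8 in CIA and 104 in control. Mki67 was at 144 CPM per kb in CIA with luteolin, 25.1 in CIA and 75.2 in control. The libraries of Smc4 read 594, 636 and 605 CPM in CIA with luteolin, 449, 478 and 476 in CIA and 567, 542 and 514 in control. The rise in CIA with luteolin against CIA was 0.39 ± 0.07 on the log2 scale (adjusted p = 0.000899). The fall in CIA against control was -0.21 ± 0.07 (adjusted p = 0.0226). That call was lost without control replicate 1 or 2, with no filter on low counts and in a fit of those 6 libraries alone. Ncapd2 and Ncapg, subunits of condensin I, rose 1.96-fold and 3.05-fold in CIA with luteolin against CIA. Ncapd2 had 76.5, 77.9 and 69.5 CPM in CIA with luteolin, 44.7, 38.4 and 31.2 in CIA and 66.2, 67.1 and 68.5 in control. Its CIA with luteolin libraries lay above all control libraries, with a log2 fold change of 0.15 ± 0.12, adjusted p = 0.323. Cdca2, which recruits a phosphatase to chromosomes at mitotic exit, rose 4.25-fold.

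Among the cytokinesis genes, Anln stood out in CIA with luteolin. Anln encodes anillin, a scaffold of the contractile ring, and had 19.0, 17.97 and 17.8 CPM in CIA with luteolin, 3.06, 2.40 and 2.78 in CIA and 4.20, 5.43 and 3.86 in control. CIA and control libraries lay close to each other and CIA with luteolin far above both. It rose 4.04-fold in CIA with luteolin against control (log2 2.02 ± 0.15, adjusted p = 4.55e-06), the largest fold of the 50 in that comparison. It was 1.64-fold lower in CIA than in control (log2 -0.71 ± 0.16, adjusted p = 0.0035). Ect2, the exchange factor that switches on RhoA at the cell equator, had 15.6, 15.1 and 13.9 CPM in CIA with luteolin, 4.73, 3.86 and 4.66 in CIA and 5.98, 7.91 and 7.91 in control. Racgap1, the centralspindlin subunit that recruits it, had 39.9, 44.9 and 37.6 CPM in CIA with luteolin, 30.2, 32.4 and 33.2 in CIA and 33.5, 35.2 and 38.8 in control. Racgap1 rose by 0.35 ± 0.10 on the log2 scale in CIA with luteolin against CIA (adjusted p = 0.0114). Its log2 fold change in CIA against control was -0.17 ± 0.10, adjusted p = 0.172.

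All 3 genes of mitotic exit rose in CIA with luteolin against CIA and fell in CIA against control. Cdca3, a target of the anaphase-promoting complex that promotes mitotic entry, had 22.3, 24.4 and 23.0 CPM in CIA with luteolin, 5.11, 3.63 and 3.04 in CIA and 12.9, 11.9 and 11.96 in control. Ube2c, the ubiquitin-conjugating enzyme of the anaphase-promoting complex, averaged 9.98 ± 0.639 CPM in CIA with luteolin, 1.87 ± 0.787 in CIA and 4.42 ± 0.950 in control (SD, n = 3 each). It shares 22.8% of its exonic bases with Tnnc2. Cdc20, the activator of the complex, had 8.33, 9.14 and 7.30 CPM in CIA with luteolin, 3.45, 1.46 and 2.12 in CIA and 5.85, 6.15 and 7.12 in control. The groups were separate in Cdca3 and Ube2c, at 5.88-fold and 5.35-fold higher in CIA with luteolin than in CIA, whereas Cdc20 rose 3.51-fold there. Between CIA with luteolin and control Cdc20 differed by 0.38 ± 0.24 on the log2 scale (adjusted p = 0.219).

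The size of the change varied among the 50 genes by more than its error. The SD of the log2 fold changes over the genes was 0.78 in CIA with luteolin against CIA, 0.67 in CIA against control and 0.44 in CIA with luteolin against control. The median SE was 0.16, 0.16 and 0.15 in these comparisons. Libraries were least even in CIA, where the median coefficient of variation over the 50 genes was 20.5%, against 6.40% in CIA with luteolin and 6.73% in control. Within CIA, replicate 1 was the highest library for 35 genes, replicate 3 for 13 and replicate 2 for 2. Without CIA replicate 1 the median log2 fold change of the 50 was 2.26 in CIA with luteolin against CIA and -1.49 in CIA against control, and without CIA replicate 3 the first was 1.97. The 9 matched genes without TTTGAA had a median log2 fold change of 2.27 in CIA with luteolin against CIA, and the 32 genes with it had a median of 1.96.

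Some counts cannot be assigned to a gene with certainty, since no rule for reads on several genes is given. This also holds for genes outside the 50 that are named below. Shared exonic bases amount to 37.3% in Tuba4a, 30.7% in Cdkn1c, 27.4% in Tuba1b, 23.4% in Ccnd1, 21% in Rbl2 and 20.7% in E2f8. Of the 50 genes, 16 share exonic bases with another gene, by 10% or more in Kif20a, Ube2c, Kif4 (15.1%), Ncapg (13.4%), Cdc25c (12.7%), Ccna2 (12.5%) and Prc1 (11.1%). The table also lists pseudogenes named after Ccnb1, Ccnb2, Kif4 and Kif22, with 20, 492, 6 and 2 counts over the 9 libraries against 3140, 2431, 6456 and 9544 for the genes themselves.

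Further genes of the same process were read from lists outside the 50. Their counts, here and below, stand beside the shares of all genes tested. Of all genes, 23.1% rose and 24.2% fell in CIA with luteolin against CIA. In CIA against control 26.6% rose and 24.5% fell, and in CIA with luteolin against control 24.2% and 20.8%. Of 55 other mitotic genes, 43 rose and 2 fell in CIA with luteolin against CIA (median log2 fold change 1.48). In CIA against control 37 fell and 6 rose (median -1.05), and 33 rose and none fell in CIA with luteolin against control (median 0.51). Troap, Kif14 and Iqgap3 showed the largest rises in the first comparison, 6.71-fold, 6.47-fold and 6.30-fold. Kif14, a motor of cytokinesis, averaged 24.3 ± 0.314 CPM in CIA with luteolin, 3.74 ± 1.29 in CIA and 11.4 ± 0.461 in control (SD, n = 3 each). The genes that fell there were Zwint and Mis12, both kinetochore components, at -0.53 ± 0.17 and -0.41 ± 0.09 on the log2 scale. Zwint averaged 126 ± 4.08 CPM in CIA with luteolin, 182 ± 53.1 in CIA and 89.9 ± 4.54 in control. It rose in CIA against control by 2.02-fold, along with Fam83d and Depdc1b at 2.40-fold and 2.03-fold. The largest falls in CIA against control were those of Cenpm, Troap and Depdc1a, at 5.31-fold, 4.05-fold and 3.90-fold. That of Cenpm lies near the floor, with raw counts of 6, 5 and 2 in CIA and 24, 37 and 17 in control. Subunits of the anaphase-promoting complex, which are not known to be periodic as a group, had median log2 fold changes of 0.07, -0.11 and -0.02 in the same 3 comparisons. Of 15 subunits, 7 were higher and 2 lower in CIA with luteolin against CIA, 3 were higher and 6 lower in CIA against control and 2 were higher and 1 lower in CIA with luteolin against control. Cdc27 fell 1.75-fold and Anapc13 rose 2.32-fold in CIA with luteolin against CIA.

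Of 25 S phase genes, 19 rose and 2 fell in CIA with luteolin against CIA (median log2 fold change 0.83). In CIA against control 17 fell and 3 rose (median -0.51), and 11 rose and 1 fell in CIA with luteolin against control (median 0.27). Rrm2, the S phase subunit of ribonucleotide reductase, rose 4.95-fold in CIA with luteolin against CIA, and Mcm5, of the replicative helicase, rose 2.93-fold. Tyms, which makes thymidylate, rose in CIA with luteolin against CIA by 2.90-fold. Mcm5 and Rrm2 fell 2.86-fold and 2.85-fold in CIA against control. The difference in size between the lists was not tested.

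**Figure D4:**
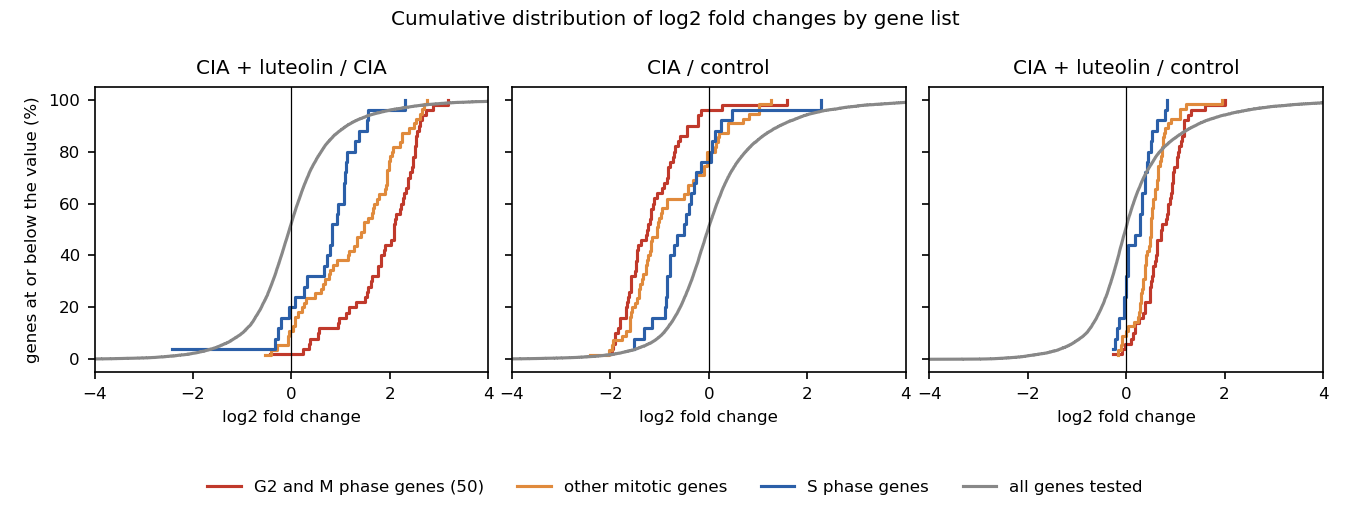
Share of genes (percent, vertical axis) at or below each log2 fold change (horizontal axis) for the 50 genes, the 55 other mitotic genes, the 25 S phase genes and all 19348 genes tested, in CIA with luteolin against CIA (left), CIA against control (middle) and CIA with luteolin against control (right). The curve of the 50 genes lies to the right of that of all genes in the left panel, with medians of 2.09 and -0.04, and to its left in the middle panel, with medians of -1.24 and -0.01; the medians of the other lists lie between.

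Among 20 regulators of cell cycle transcription, 8 rose and 5 fell in CIA with luteolin against CIA, where 23.1% and 24.2% of all genes did. In CIA against control 4 rose and 3 fell, against 26.6% and 24.5% of all genes. In CIA with luteolin against control 5 rose and 3 fell, against 24.2% and 20.8%. Apart from the rises in the first comparison, none of these counts stood clearly above the share of all genes. Foxm1 and Mybl2, the activators of G2 genes, rose in CIA with luteolin against CIA and fell in CIA against control. Foxm1 averaged 10.5 ± 0.461 CPM in CIA with luteolin, 3.03 ± 0.741 in CIA and 8.03 ± 0.402 in control. It rose by 1.79 ± 0.17 on the log2 scale in CIA with luteolin against CIA (adjusted p = 1.5e-05). Mybl2 averaged 20.1 ± 0.885 CPM in CIA with luteolin, 6.87 ± 0.289 in CIA and 14.0 ± 0.351 in control, and rose by 1.55 ± 0.10 (adjusted p = 7.91e-07). The DREAM subunits Lin9, Lin37 and Rbbp4 passed the test in none of the 3 comparisons, and Lin54 and Lin52 fell 1.28-fold and 1.62-fold in CIA with luteolin against CIA.

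E2f7 and E2f8, the atypical E2F repressors, rose in CIA with luteolin against either other group. E2f7 averaged 10.1 ± 1.02 CPM in CIA with luteolin, 2.50 ± 0.311 in CIA and 3.05 ± 0.220 in control. E2f8 averaged 41.2 ± 1.49 CPM in CIA with luteolin, 8.94 ± 2.05 in CIA and 11.97 ± 2.08 in control. Their log2 fold changes were 1.74 ± 0.15 and 1.78 ± 0.17 in CIA with luteolin against control. In CIA against control they were -0.28 ± 0.15, adjusted p = 0.145, and -0.42 ± 0.17, adjusted p = 0.0569. E2f1 and Tfdp1, an activator E2F and its dimer partner, rose by 1.11 ± 0.15 and 0.80 ± 0.08 in CIA with luteolin against CIA. Rb1, the retinoblastoma protein that holds E2Fs in check, fell by 2.04-fold in CIA with luteolin against CIA and averaged 60.4 ± 2.54 CPM in CIA with luteolin, 123.1 ± 23.9 in CIA and 90.6 ± 5.22 in control. E2f2 and Tfdp2 fell in that comparison as well, by 1.66-fold and 1.90-fold. Rbl1 and Rbl2 rose by 0.30 ± 0.09 and 0.28 ± 0.07 on the log2 scale. E2f3, E2f4, E2f5 and Myc did not pass there, with log2 fold changes between -0.26 (E2f5) and 0.45 (Myc). E2f5 did fall against control, by -0.47 ± 0.14 in CIA (adjusted p = 0.0162) and by -0.73 ± 0.14 in CIA with luteolin (adjusted p = 0.00179).

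Of 9 inhibitors and inhibitory kinases of the cyclin-dependent kinases, 3 fell and 1 rose in CIA with luteolin against CIA. Of all genes, 24.2% fell and 23.1% rose there. In CIA against control 5 of the 9 rose and 2 fell, against 26.6% and 24.5% of all genes. Cdkn1a and Cdkn2a rose and Pkmyt1 fell in CIA with luteolin against control. Cdkn1b, which encodes p27 and is known for holding resting lymphocytes out of the cycle, averaged 135 ± 6.35 CPM in CIA with luteolin, 196 ± 20.9 in CIA and 146 ± 6.998 in control. It rose by 0.42 ± 0.09 on the log2 scale in CIA against control (adjusted p = 0.00283) and was 1.45-fold lower in CIA with luteolin than in CIA (adjusted p = 0.000689). Cdkn2d, Cdkn1c, Cdkn1a and Cdkn2a also rose in CIA against control, by 1.61-fold, 1.93-fold, 2.11-fold and 2.98-fold, and Cdkn2d and Cdkn1c also fell in CIA with luteolin against CIA. Cdkn2c went the other way, 1.85-fold higher in CIA with luteolin than in CIA and 1.52-fold lower in CIA than in control. Pkmyt1, an inhibitory kinase of CDK1, fell 1.57-fold in CIA against control, and Wee1, another, and Cdkn2b passed in no comparison.

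Of 10 cyclins, kinases and CDC25 phosphatases of G1 and S phase, 7 rose and 1 fell in CIA with luteolin against CIA. Of all genes, 23.1% rose and 24.2% fell there. In CIA against control 5 fell and 1 rose, where 24.5% and 26.6% of all genes did. In CIA with luteolin against control 6 rose and 3 fell, where 24.2% and 20.8% of all genes did. Ccnd2, a D cyclin of lymphocytes, averaged 64.6 ± 3.16 CPM in CIA with luteolin, 35.8 ± 2.45 in CIA and 46.9 ± 3.49 in control. Cdk6, its kinase partner, averaged 56.3 ± 1.47 CPM in CIA with luteolin, 24.7 ± 1.68 in CIA and 18.5 ± 1.34 in control, and rose in CIA against control (0.41 ± 0.09, adjusted p = 0.0033). Ccnd1, Ccnd3, Ccne2, Cdk4 and Cdc25a rose 2.32-fold, 1.23-fold, 1.89-fold, 1.28-fold and 1.96-fold in CIA with luteolin against CIA. Ccnd1 shares 23.4% of its exonic bases with LTO1, which had 14723 counts against 532 for Ccnd1, so its counts are uncertain. Cdk4 and Ccne2 share 19.7% and 17.4% with Tspan31 and Ints8. Cdc25b fell 1.61-fold there, and Ccne1 and Cdk2 did not pass. Ccne1 was 1.90-fold lower in CIA than in control. Of 10 tubulins, 7 rose and none fell in CIA with luteolin against CIA, with Tubb6, Tuba1b and Tuba4a at 2.50-fold, 2.03-fold and 1.94-fold.

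Markers of other cells differed between the same groups. Beside their counts, 23.1% of all genes rose and 24.2% fell in CIA with luteolin against CIA. In CIA against control 26.6% of all genes rose and 24.5% fell, and in CIA with luteolin against control 24.2% and 20.8%. The 10 granulocyte precursor markers summed to 3718, 3696 and 3763 CPM in CIA with luteolin, 416, 576 and 724 in CIA and 178, 165 and 212 in control. Ngp and Ltf held most of this sum, with 302069 and 144649 counts over the 9 libraries against 30666 for Mpo, the next. All 10 rose in CIA with luteolin against CIA and against control. In CIA against control 6 rose and none fell, with log2 fold changes of the 10 from -0.62 to 2.67. The sum of these markers, mostly that of Ngp and Ltf, was highest in the group where that of the 50 genes was highest. It was higher in CIA than in control, where that of the 50 genes was lower. The 8 mature neutrophil markers summed to 5614, 5233 and 5138 CPM in CIA with luteolin, 6445, 9679.9 and 10754 in CIA and 2321, 1976 and 2028 in control. All 8 of these rose in CIA against control, and 6 fell and 1 rose in CIA with luteolin against CIA.

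The 10 monocyte and macrophage markers had the order of the 50 genes, with 730.5, 622 and 720.3 CPM in CIA with luteolin, 159.9, 160.1 and 212 in CIA and 324, 311 and 234 in control. All 10 rose in CIA with luteolin against CIA and 8 fell in CIA against control. The 10 B cell markers summed to 465, 539 and 436 CPM in CIA with luteolin, 1824, 1051 and 308 in CIA and 2189, 2127 and 2216 in control. CIA replicate 1, the highest CIA library for most of the 50 genes, also had the most B cell RNA of the CIA libraries. Replicate 2 had more B cell RNA than replicate 3. Replicate 2 was the highest CIA library for 2 of the 50 genes and the lowest for 21, against 13 and 24 for replicate 3. A link between B cell RNA and the spread of the 50 genes in CIA was not tested. The 10 T cell markers summed to 405, 423 and 398 CPM in CIA with luteolin, 363, 584 and 631 in CIA and 225, 218 and 191 in control, and 9 of them rose in CIA against control.

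Markers of other dividing or rare cells were read as well. Germinal centre B cell markers (7 genes) summed to 129 to 145 CPM in CIA with luteolin, 188 to 292 in CIA and 107 to 121 in control. Most of that sum was Fas, with 37459 counts over the 9 libraries against 5761 for Neil1, the next. The 7 did not move together. In CIA against control 4 rose and 2 fell, and in CIA with luteolin against control 2 rose and 3 fell. In CIA with luteolin against CIA 3 fell and 0 rose. Plasma cell markers (7 genes) summed to 569 to 620.3 CPM in CIA with luteolin, 509 to 559 in CIA and 387 to 422 in control. Of 15 erythroid precursor genes, 14 were in the table and 9 passed the filter on low counts, and those in the table summed to 102 to 115 CPM in CIA with luteolin, 79.7 to 109 in CIA and 77.4 to 79.3 in control. Tfrc held most of that sum, with 28390 counts over the 9 libraries against 591 for Gata1, the next. Of the 9 that passed the filter, 5 fell and 2 rose in CIA with luteolin against CIA (median log2 fold change -1.96). The 6 megakaryocyte markers summed to 85.8 to 90.9 CPM in CIA with luteolin, 19.9 to 44.2 in CIA and 4.97 to 6.95 in control. The 6 basophil and mast cell markers summed to 169.9 to 200.4 CPM in CIA with luteolin, 34.6 to 60.2 in CIA and 2.56 to 4.10 in control. No marker list held a gene at 0 in all 9 libraries. The part of any of these cells in the levels of the 50 genes was not tested.

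**Figure D5:**
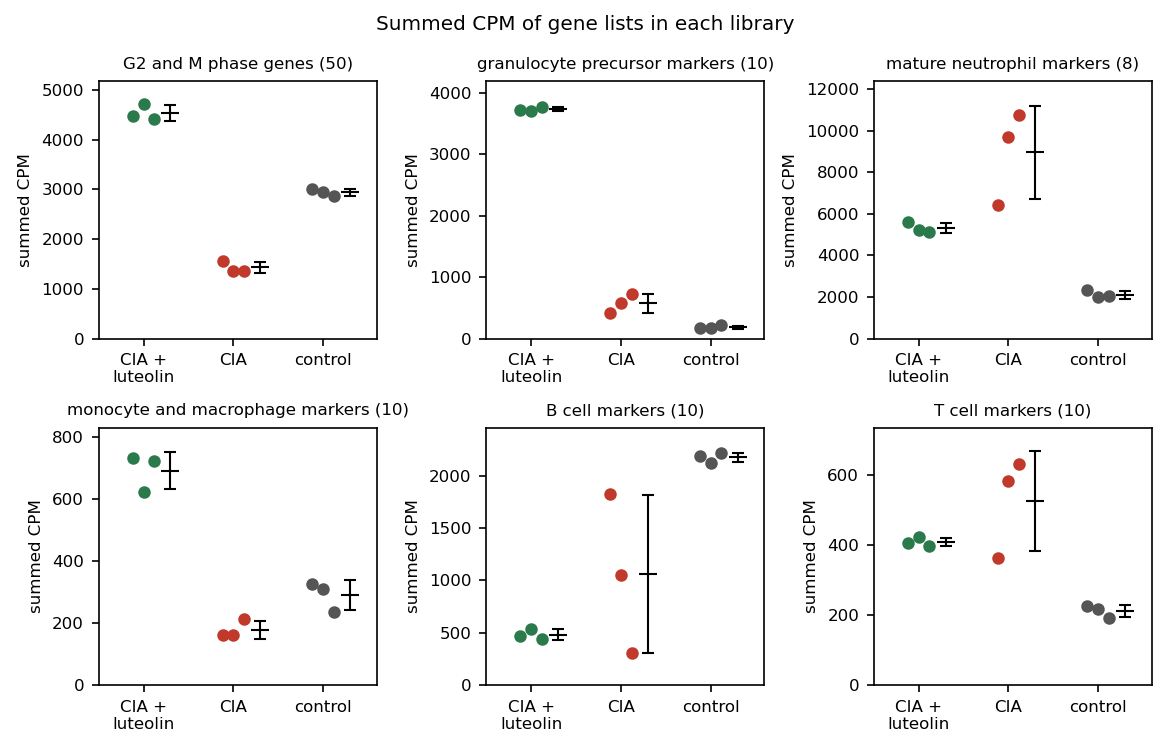
Summed CPM of the 50 genes and of 5 lists of cell markers in each library (points) with the mean ± SD of each group (bars, n = 3), on axes that start at 0; the number of genes stands in each title. The 50 genes and the monocyte and macrophage markers are highest in CIA with luteolin and lowest in CIA, granulocyte precursor markers are at 3696 CPM or more in CIA with luteolin and 724 CPM or less elsewhere, and the B cell markers of the CIA libraries span 308 to 1824 CPM.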

How the data were processed

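RNA of 9 mouse libraries was extracted with TRIzol, made into stranded mRNA libraries and sequenced from both ends on a DNBSEQ-T7, per the labels' protocols. Reads were trimmed with Trimmomatic 0.36 and the build is mm39, per the submitters' processing notes, whereas the labels' protocols name CHOK1GS as the reference and an aligner written as STRA 2.5.3a. The deposited values are raw counts per gene that the authors obtained from featureCounts of Subread 1.5.1, per the labels' protocols. The strand setting and the rule for reads on several genes are not given in the sources used here. Of the values from 1 to 10, 73.4% were even, so the mates of a fragment seem to have been counted separately, and counting errors rest on fewer fragments than counts. Gene lengths, for CPM per kb, are the deposited ones.

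Tests used these counts, unchanged, in edgeR 4.0.16 under R 4.3.3. Genes were kept by filterByExpr with the 3 groups, and libraries were scaled by TMM, with factors of 0.950 to 1.02. All 9 libraries entered 1 quasi-likelihood fit with the group as its term. The spread behind each p-value was thus estimated over all 3 groups, including CIA, whose libraries were the least even. The 3 contrasts were tested 2-sided with glmQLFTest, and p-values were adjusted after Benjamini and Hochberg over the 19348 genes. Replicate numbers were not used to pair libraries, since the labels give them no meaning. The SE was derived from F as |log2 fold change| over its square root, and levels are given with their SD over 3 libraries. The procedure was tested on simulated data. All 50 genes are named. Per-library values are given for at least the 2 most abundant genes of each role and those whose calls differ. Regulators, kinase inhibitors and G1 and S phase genes are all named, and in other lists some of the largest changes. An S phase gene is counted but not reported here by name. The genes and lists were chosen with earlier results of these data known. The alternatives were DESeq2 1.42.0 and its size factors, library totals, upper-quartile scaling, no filter, a filter of 5 CPM in 3 libraries, the 6 libraries of a pair, a replicate block, a 2-fold minimum and leaving out each library.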

Additional observations from a re-analysis of the deposited data

How the results depend on the processing

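With a 2-fold minimum as well, 2038 genes were higher and 1620 lower in CIA with luteolin against CIA, 2678 and 1470 in CIA against control, and 2546 and 1123 in CIA with luteolin against control, where 13 of the 50 genes were higher. Leaving out each library in turn gave 3706 to 4852 higher and 3335 to 5032 lower genes in the first comparison, 4275 to 5646 and 3771 to 5419 in the second, and 3915 to 5376 and 2801 to 4930 in the last. Of the 50 genes, 47 to 48 were then higher and 0 to 1 lower in the first comparison (Cks2 without CIA replicate 1), 43 to 46 lower and 1 higher in the second, and 34 to 42 higher and 0 to 1 lower in the last (Cenpa without CIA replicate 3). The median log2 fold change of the 50 ran from 1.97 to 2.26, from -1.49 to -1.16 and from 0.70 to 0.78 in these fits. In a fit of the 6 libraries of a pair, 44 of the 50 were higher and 1 lower in CIA with luteolin against control, the lower one again Cenpa at -0.27. Ccna2, Aurkb, Kif20a, Smc4 and Cdc20 gained the call there, at adjusted p of 0.0431, 0.00147, 0.000598, 0.0125 and 0.0177. The log2 fold change of Nek2 in that comparison was -0.02, and reversed to 0.0055 with DESeq2 size factors and 0.0071 with the DESeq2 test. It was 0.0314 without control replicate 1 and 0.0322 without CIA with luteolin replicate 1, none past the threshold, and ran from -0.0641 to 0.0322 when each library was left out. The causes were not tested. Upper-quartile scaling moved the median of all genes in CIA with luteolin against CIA to -0.10. The filter of 5 CPM left 48 of the 50 genes.

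The replicate numbers were not taken to pair libraries. Same-numbered libraries of different groups correlated in their deviations at 0.007 to 0.143, and not every pair passed 0.1. Differently numbered libraries correlated at -0.177 to 0.092, so same-numbered ones leaned higher, and what the numbers stand for was not tested. With a replicate block 45 of the 50 were lower and 1 higher in CIA against control, 48 higher in CIA with luteolin against CIA and 39 higher in CIA with luteolin against control, with medians of -1.25, 2.11 and 0.72. Genes under 5 CPM in CIA, such as Cdc25c, Pbk and Ttk, rest on few fragments, and the smallest count of any of the 50 in a library was 10.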
